A study of Mus musculus with 18 samples.

Results

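Striatal gene expression was compared between mice on day 21 and mice on day 7 of D-amphetamine, to ask what differed further between the shorter and the longer course of the drug. The comparison uses 6 of the 18 libraries of the study, chosen by their labels: 3 animals of the day 21 amphetamine group and 3 other animals of the day 7 amphetamine group. The genes examined are the 13975 of 29942 in the deposited table whose mean level over the 18 libraries was at least 1 FPKM, a fragment count divided by transcript length and library size. All animals were group-housed siblings of the 129Sv/Jae S4 strain, matched for age and sex, and tissue was the striatum of both hemispheres lying dorsal to the anterior commissure. Amphetamine animals had received the hemisulfate salt of D-amphetamine in 0.9% saline by intraperitoneal injection, at 10 ml/kg and 7 mg/kg in total per day. Saline animals of day 7 and day 21, 3 each, had received intraperitoneal 0.9% saline, and they show the difference between days without the drug. The labels do not give the animals' age, the number of injections per day or the time between the last injection and dissection. The study's title ties the expression changes to repetitive behaviours induced by the drug.

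Amphetamine releases dopamine and other monoamines from nerve terminals. In the striatum, most neurons are GABAergic projection neurons of 2 kinds: those of the direct pathway carry the D1 dopamine receptor and the peptides substance P and dynorphin, and those of the indirect pathway carry the D2 receptor and enkephalin. Stimulation of D1 receptors raises cyclic AMP and, through the kinase ERK, switches on immediate-early genes such as Fos and Arc within minutes. Repeated exposure is known to alter how strongly some of these genes respond, and peptides, channels and receptors are transcribed on a slower course.

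The amphetamine libraries resembled each other about as much between the days as within a day. Pearson correlations of log2(FPKM + 1) over the tested genes were 0.923 to 0.934 among the day 7 amphetamine animals, 0.922 to 0.924 among the day 21 amphetamine animals and 0.914 to 0.929 between the groups. FPKM hold no read counts, and the number of reads per library is not known. Depth relative to the deepest library was estimated from the step size of low values, and averaged 0.822 on day 7 and 0.765 on day 21 in amphetamine animals, and replicate 3 of day 21 amphetamine was the shallowest library of the study at 0.652. Striatal identity was plain in every library: Ppp1r1b, which encodes the dopamine- and cAMP-regulated phosphoprotein DARPP-32, lay between 877 and 1333 FPKM. Transcripts of the Y chromosome were present in each library and Xist was at most 0.0668 FPKM, so the animals showed 1 sex pattern throughout. In bulk tissue, fewer cells of a type and less RNA per cell cannot be told apart.

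No gene passed a Benjamini-Hochberg adjusted p of 0.05 between day 21 and day 7 of amphetamine (0.0% of tested genes), and the smallest adjusted p was 0.155. The test was limma with 1 mean per group, fitted to log2(FPKM + 1) of all 18 libraries, and every difference below is day 21 minus day 7 on that scale. Before adjustment, 1381 genes (9.88%) had p under 0.05, of which 865 (6.19%) were higher on day 21 and 516 (3.69%) lower. In 1330 genes (9.52%) all 3 day 21 animals lay above all 3 day 7 animals, and in 904 (6.47%) all lay below. The differences were small, with a median size of 0.092. Saline animals, compared between the same days, also gave 0 genes past the adjusted threshold (0.0%) and 755 (5.40%) at an unadjusted p under 0.05, 616 higher (4.41%) and 139 lower (0.995%). Their days did not overlap in 1045 genes higher (7.48%) and 380 lower (2.72%) on day 21. Nor did the drug by day interaction, which is the amphetamine difference minus the saline difference, pass for any gene (0.0%), with 574 genes (4.11%) at an unadjusted p under 0.05, 227 above 0 (1.62%) and 347 below (2.48%). With 3 animals against 3, an exact permutation test of 1 gene cannot go below p = 0.1, so single genes are given here by their values, their 95% confidence interval and limma's adjusted p.

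**Figure D1:**
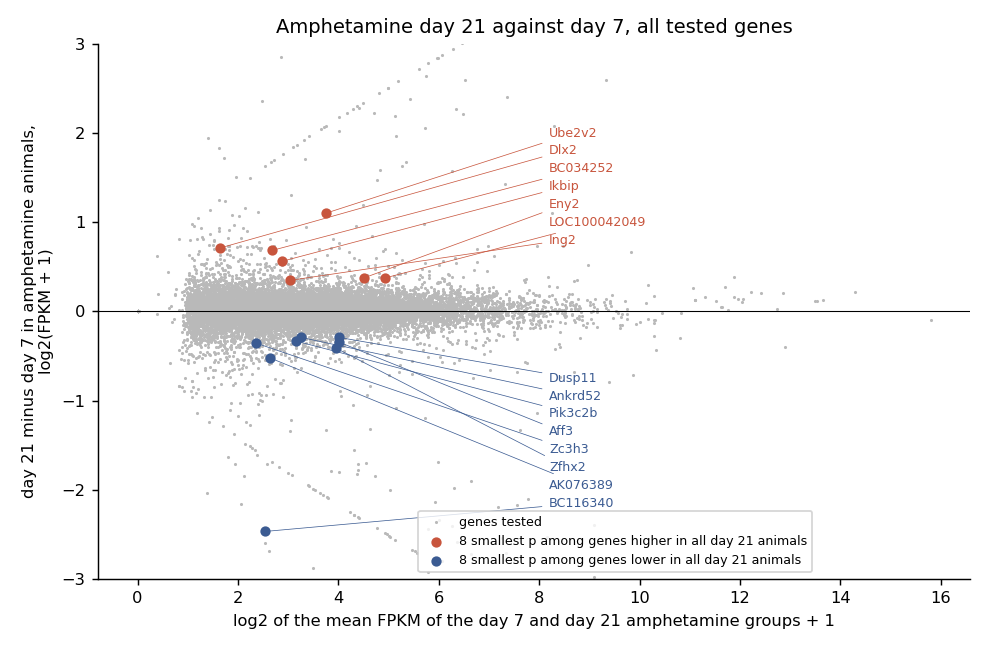
Each grey point is a tested gene, with the log2 of the mean FPKM of the day 7 and day 21 amphetamine groups plus 1 on the horizontal axis and the day 21 minus day 7 difference in log2(FPKM + 1) on the vertical axis, drawn from -3 to 3 (60 genes lie outside, AK181029 among them). Red and blue points are the 8 genes per direction with the smallest p among genes whose day 21 and day 7 animals do not overlap. Most genes lie close to 0, and the straight bands of points far from it are genes listed at 0 in 1 or more libraries.

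The split of direction depended on scaling. Each scaling gave its own set of genes at an unadjusted p under 0.05. The share higher on day 21 was 62.6% of 1381 genes as deposited and 49.9% of 1338 after median-of-ratios scaling. It was 52.2% of 1344 after quantile normalization and 54.2% of 1311 after a correction for GC content. In saline animals the share was 81.6% of 755 genes as deposited and 62.0% of 647 after median-of-ratios scaling. After quantile normalization it was 53.3% of 642, and after the GC correction 44.1% of 691. Over all tested genes the median difference was 0.0129 in amphetamine and 0.0372 in saline animals, and 53.8% and 63.9% of genes lay above 0. The amphetamine difference also ran with base composition. Its median was 0.0713 in the quintile of genes with the least GC in their transcripts and -0.0335 in the quintile with the most, whereas in saline animals the medians of the same quintiles were 0.0108 and 0.0563. Per library, the GC-rich quintile minus the GC-poor quintile was 0.0737, 0.0376 and 0.0229 in the day 7 amphetamine animals. It was -0.0959, -0.146 and 0.0575 in the day 21 amphetamine animals, so 2 of 3 day 21 libraries lay below every day 7 library and replicate 3 lay within their range. The part of GC content and depth in single differences was not tested.

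**Figure D2:**
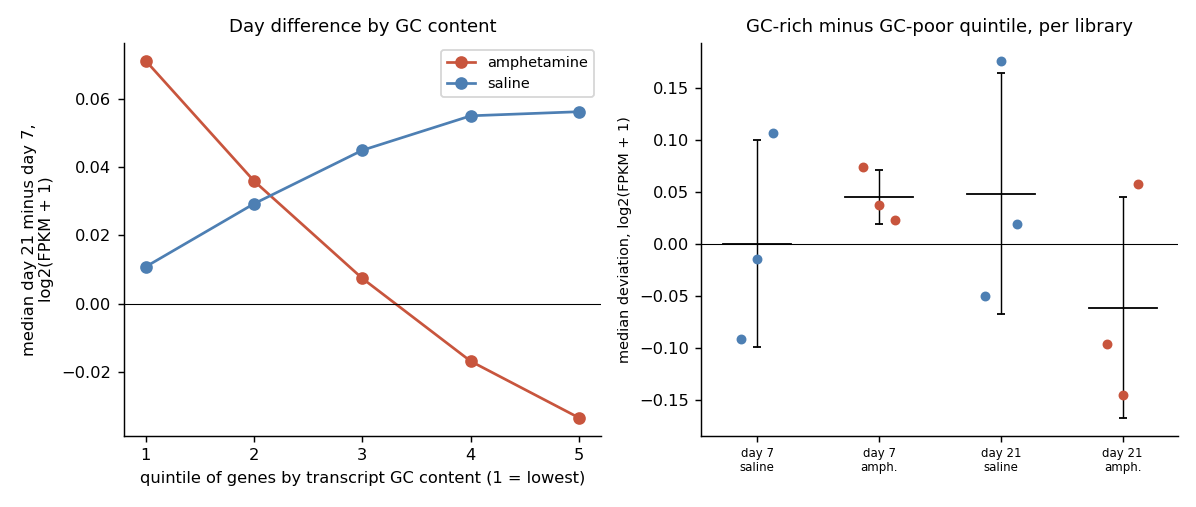
The left panel gives the median day 21 minus day 7 difference in log2(FPKM + 1) for quintiles of genes ordered by transcript GC content, in amphetamine (red) and saline (blue) animals; it runs downward in amphetamine, from 0.0713 to -0.0335, and upward in saline, from 0.0108 to 0.0563. The right panel gives for each library the median deviation of the GC-rich quintile minus that of the GC-poor quintile, with bars for group mean and SD over 3 animals, and shows replicates 1 and 2 of day 21 amphetamine at -0.0959 and -0.146.

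The genes with the smallest p among those higher on day 21 were few and unalike in function. Ikbip, which encodes a partner of the IkB kinase, measured 5.09, 5.44 and 4.25 FPKM in the 3 day 7 animals and 7.43, 7.11 and 8.69 in the 3 day 21 animals. The groups did not overlap, and the difference was 0.56 (95% interval 0.38 to 0.74, adjusted p = 0.155), against 0.11 in saline animals. Eny2, a small subunit of the histone deubiquitinating module of SAGA and of an mRNA export complex, was at 18.5, 19.6 and 18.8 FPKM on day 7 and 24.2, 25.99 and 24.5 on day 21. Its groups were likewise separate, with a difference of 0.38 (0.23 to 0.52, adjusted p = 0.1898). Ube2v2 encodes a ubiquitin-conjugating enzyme variant that works with Ube2n in building ubiquitin chains. It had 7.39, 8.23 and 7.26 FPKM on day 7 and 17.6, 16.95 and 18.005 on day 21, the widest gap of these genes apart from AK181029 (difference 1.10, 0.62 to 1.59, adjusted p = 0.225). Saline animals were uneven and overlapped between the days, at 8.18, 8.37 and 14.8 on day 7 and 8.66, 13.8 and 8.39 on day 21. Replicate 3 of day 7 and replicate 2 of day 21 stood well above the other saline animals, so uneven values also occurred without the drug. The interaction was 1.11 (unadjusted p = 0.003704, adjusted p = 0.998).

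Dlx2, a homeobox factor of GABAergic forebrain neurons, was low and separate between days, with 1.56, 1.19 and 1.39 FPKM on day 7 and 2.44, 3.11 and 3.16 on day 21. The difference was 0.71 (0.43 to 0.999, adjusted p = 0.1898), beside 0.39 in saline animals, so the day difference ran upward with and without the drug. Ing2, a chromatin reader of histone deacetylase complexes, was nearly the same in the 3 day 21 animals, 8.18, 8.14 and 8.19 FPKM, after 5.75, 6.78 and 6.12 on day 7 (difference 0.35, adjusted p = 0.225). The remaining transcripts of this group carry only clone or locus names: BC034252 (4.01, 4.15 and 3.55 FPKM on day 7 and 6.69, 7.87 and 6.14 on day 21, difference 0.68, adjusted p = 0.178), LOC100042049 (difference 0.38) and AK181029. AK181029 was listed at 0 in all 3 day 7 amphetamine animals and at 537, 643 and 762 FPKM in the day 21 animals. Saline animals of day 21 were at 0, 769 and 1037, so a reading of 0 beside high readings also occurred without the drug, and no fold is given.

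The genes with the smallest p among those lower on day 21 were also few and mixed. Zfhx2, a zinc finger homeobox factor, measured 17.3, 15.6 and 17.1 FPKM on day 7 and 12.7, 11.3 and 12.9 on day 21. No day 21 animal reached a day 7 animal, and the difference was -0.41 (-0.57 to -0.26, adjusted p = 0.1898), beside -0.06 in saline. Pik3c2b, a class II phosphoinositide kinase, was at 8.797, 8.81 and 9.07 FPKM on day 7 and 7.03, 6.36 and 7.22 on day 21 (difference -0.33, adjusted p = 0.1898), with -0.17 in saline. Aff3, a nuclear protein of the AF4 family, was at 16.99, 16.02 and 18.4 and then 13.8, 11.8 and 14.3 FPKM (difference -0.35, adjusted p = 0.225). Both pairs of groups were separate, and in each gene replicate 2 was the lowest animal of day 21. Ankrd52, a regulatory subunit of a serine/threonine phosphatase, went from 9.09, 9.75 and 9.86 FPKM on day 7 to 8.25, 7.47 and 7.17 on day 21 (difference -0.29, adjusted p = 0.216). Zc3h3, a zinc finger protein of mRNA processing, and Dusp11, an RNA phosphatase, differed by -0.36 and -0.29. The clone transcript AK076389 was at 6.59, 5.94 and 6.41 FPKM on day 7 and 4.36, 3.78 and 4.16 on day 21 (difference -0.52), with saline animals between 3.95, 4.07 and 3.73 FPKM on day 21 and 4.82, 4.42 and 4.24 on day 7. BC116340 was listed at 0 in 2 of 3 day 21 amphetamine animals (0, 3.096 and 0 FPKM, after 6.08, 14.5 and 5.33 on day 7), and no fold is given for it.

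The immediate-early genes, taken as a list of 53 of which 49 were tested, differed in both directions between the days of amphetamine. Their median difference was -0.0156, with 22 above and 27 below 0 (all tested genes: 53.8% above and 45.6% below), and 2 were higher and 3 lower at an unadjusted p under 0.05 (6.19% and 3.69% of all genes). All day 21 animals lay below all day 7 animals in 10 of the 49 genes and above them in 3 (6.47% and 9.52% of all genes). Leaving out 1 amphetamine library at a time left 26 to 33 genes below 0, with medians from -0.0873, without replicate 1 of day 21, to -0.0221. Fos, a subunit of the transcription factor AP-1, measured 17.1, 23.1 and 20.6 FPKM on day 7 and 25.7, 17.7 and 17.3 on day 21 in amphetamine animals, while saline animals were at 2.75, 3.69 and 3.86 and 5.03, 7.38 and 3.12. The amphetamine groups overlapped, both above every saline animal, and the difference between them was -0.02 (-0.62 to 0.59, adjusted p = 0.999), an interval wide enough to hold a sizeable shift either way. Arc, a synaptic protein that promotes the uptake of glutamate receptors, was at 69.5, 90.8 and 82.8 FPKM on day 7 and 95.5, 54.7 and 63.3 on day 21 (difference -0.22, -0.86 to 0.43). Btg2, an antiproliferative protein that recruits mRNA deadenylases, was at 5.79, 9.78 and 8.15 FPKM on day 7 and 11.98, 9.595 and 8.63 on day 21 (difference 0.33, -0.11 to 0.77). For both, the days overlapped.

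Egr1, a zinc finger factor of the immediate-early class, was tightly grouped on day 7 at 149.7, 156 and 160.4 FPKM and spread on day 21 at 162, 115 and 119.6 (difference -0.25, -0.68 to 0.18). Egr2 had the same form, 11.3, 14.2 and 11.7 FPKM and then 13.99, 6.49 and 6.25 (difference -0.51, -1.25 to 0.22), as had the nuclear receptor Nr4a1, 64.7, 51.6 and 56.98 and then 57.4, 38.1 and 39.98 (difference -0.37, -0.93 to 0.20). In all 3, replicate 1 of day 21 lay near the day 7 animals and replicates 2 and 3 lay below them. Replicate 1 was also the highest day 21 amphetamine animal for Fos (25.7, 17.7 and 17.3 FPKM), Btg2 (11.98, 9.595 and 8.63), Arc (95.5, 54.7 and 63.3), Junb (109, 74.9 and 96.1) and Dusp1 (36.97, 25.9 and 26.2). Npas4, an activity-dependent factor of neurons, did not share that order: it was at 12.2, 13.1 and 11.8 FPKM on day 7 and 7.495, 10.9 and 12.2 on day 21. Its saline animals were at 3.27, 2.83 and 3.64 FPKM on day 7 and 5.73, 8.01 and 3.46 on day 21, so the interaction was -0.89 (unadjusted p = 0.0339, adjusted p = 0.998), the lowest of the list. Differences of Fosb and Homer1 were -0.13 and -0.14.

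The members of the immediate-early list with the smallest p went in both directions. Fosl2, another AP-1 subunit, was at 12.4, 8.97 and 8.89 FPKM on day 7 and 6.98, 5.47 and 5.26 on day 21. The groups were separate, with a difference of -0.68 (-1.18 to -0.17, adjusted p = 0.368). Nr4a3, an orphan nuclear receptor, was at 9.37, 8.08 and 7.07 and then 6.19, 4.15 and 2.87 FPKM (difference -0.80, -1.55 to -0.06, adjusted p = 0.452). Its saline values of day 7, 1.75, 7.53 and 3.85, ran from below every day 21 amphetamine animal to above only the lowest day 7 amphetamine animal. Ier3, a stress-induced survival factor, lay the other way at 3.902, 4.37 and 3.49 FPKM on day 7 and 5.62, 4.71 and 6.47 on day 21 (difference 0.42, 0.18 to 0.65, adjusted p = 0.255; saline -0.08). Cyr61, a secreted matricellular protein, differed by 0.34. Per1, a further lower member of this list, is described below with the clock genes. In saline animals 30 of the 49 genes lay above 0 between the days (63.9% of all tested genes did) with a median of 0.0365, and the interaction was below 0 in 36 of 49 (57.2% of all tested genes), with a median of -0.124. After the GC correction the amphetamine median was 0.0064 with 26 of 49 above 0.

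**Figure D3:**
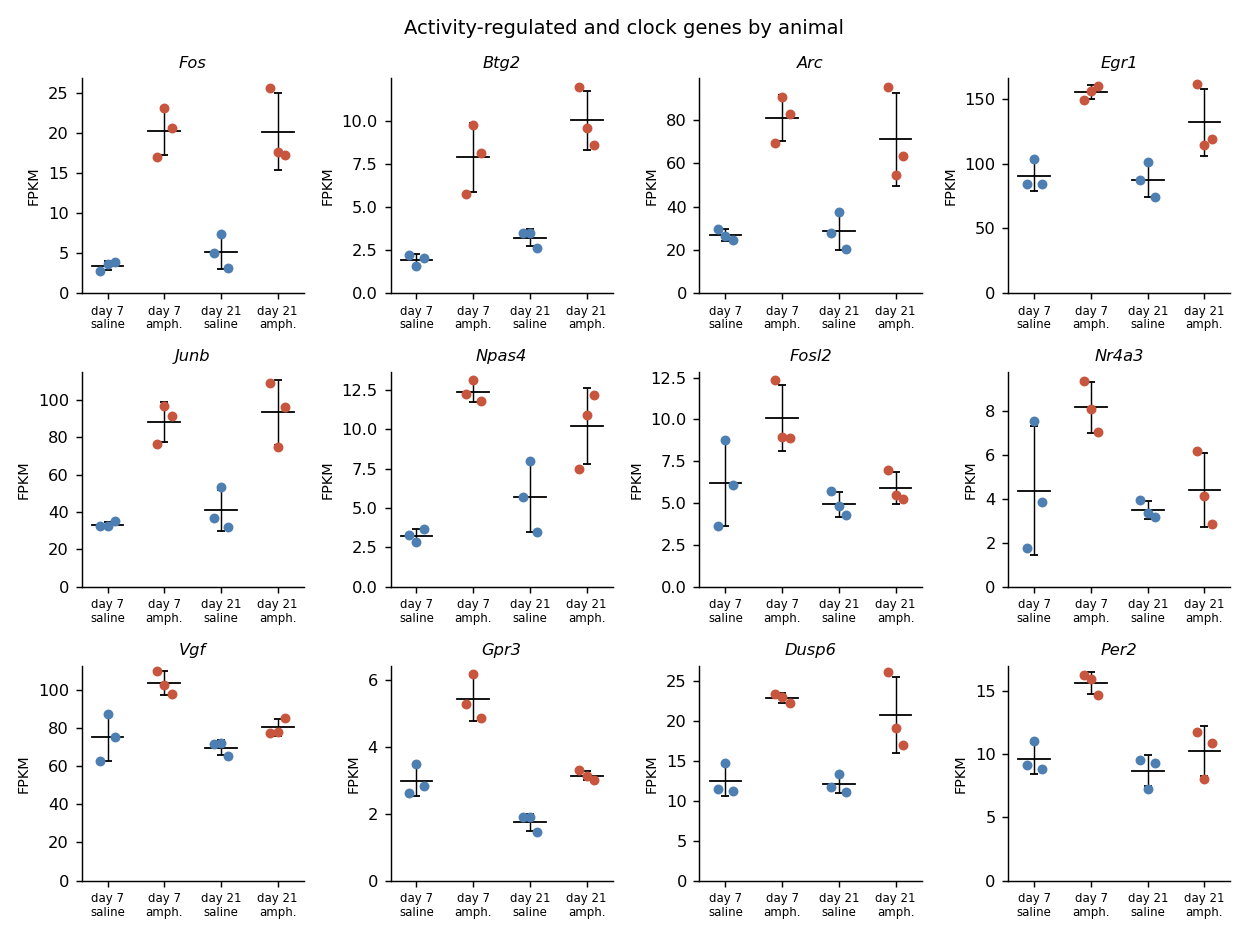
FPKM of 12 activity-regulated and clock genes in each animal of the day 7 and day 21 groups (blue saline, red amphetamine), with the mean and SD over 3 animals as bars. Fos, Btg2 and Junb sit well above saline on both days with overlapping amphetamine groups, while Fosl2, Nr4a3, Vgf, Gpr3 and Per2 have day 21 amphetamine animals below all day 7 amphetamine animals.

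Genes that restrain ERK signalling were mostly below 0. Of 15 tested, 11 were (45.6% of all tested genes), with a median of -0.151 (saline -0.00100), and 2 were lower and 1 higher at an unadjusted p under 0.05 (3.69% and 6.19% of all genes). Spred1, an inhibitor of Ras activation, was at 59.5, 59.6 and 59.3 FPKM on day 7 and 53.8, 50.04 and 50.02 on day 21. All day 21 animals were below the narrow day 7 group, with a difference of -0.21 (-0.37 to -0.05, adjusted p = 0.368). Its relative Spred2 differed by -0.15, and Rasa1, a Ras GTPase-activating protein, by 0.18. Dusp6, the cytoplasmic ERK phosphatase, measured 23.4, 22.99 and 22.2 FPKM on day 7 and 26.1, 19.1 and 17.1 on day 21, with saline animals at 11.5, 14.7 and 11.2 and 11.7, 13.3 and 11.2; the amphetamine days overlapped (difference -0.16, -0.61 to 0.30). Leaving out 1 library at a time left 10 to 12 of the 15 genes below 0, but the size of the median depended on single libraries: it was -0.0738 without replicate 3 and -0.0972 without replicate 2 of day 21 amphetamine.

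Late activity-dependent genes, 17 of 19 tested, had a median of -0.0339. At an unadjusted p under 0.05, 1 was higher and 2 were lower (6.19% and 3.69% of all genes). Vgf, a secreted neuropeptide precursor, was at 110.1, 103 and 97.96 FPKM on day 7 and 77.5, 78.2 and 85.4 on day 21 of amphetamine. The days were separate (difference -0.36, -0.71 to -0.01, adjusted p = 0.485), and the day 21 values lay closer to saline, 71.9, 72.2 and 65.1 FPKM, than those of day 7 did to theirs, 62.5, 87.2 and 75.4. Gpr3, a constitutively active receptor coupled to cyclic AMP, was at 5.28, 6.17 and 4.85 FPKM on day 7 and 3.295, 3.12 and 3.01 on day 21. Saline animals differed alike, from 2.62, 3.49 and 2.83 to 1.89, 1.89 and 1.45, so that the differences were -0.63 with amphetamine and -0.54 with saline. Mfap3l differed by 0.21. Leaving out 1 library at a time moved the list's median between -0.136 and 0.0894, across 0. Bdnf, the neurotrophin most studied in this setting, was under the level filter.

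The heat shock list, which holds chaperones of the cytosol and mitochondria, their cochaperones and the factor Hsf1, lay below 0 almost throughout. All 22 genes were tested, 21 lay below 0 (45.6% of all tested genes did), the median was -0.158, and 5 were lower and 0 higher at an unadjusted p under 0.05 (3.69% and 6.19% of all genes). In 6 genes the days did not overlap, all lower (6.47% of all genes). Saline animals showed no such shift, with 14 of 22 above 0, a median of 0.0173 and 0 at an unadjusted p under 0.05. Dnajb5, a cochaperone of the Hsp40 family, was at 43.1, 40.3 and 42.1 FPKM on day 7 and 34.8, 28.5 and 28.2 on day 21, with saline animals at 25.3, 32.1 and 28.2 and 29.8, 25.5 and 27.3. Replicates 2 and 3 of day 21 were thus at the saline level and replicate 1 between the groups, and the difference was -0.45 (-0.74 to -0.16, adjusted p = 0.297). Hspa1a, the inducible Hsp70, was low, at 1.68, 3.84 and 1.53 FPKM on day 7 and 0.767, 0.647 and 1.37 on day 21 (difference -0.75, -1.24 to -0.26, adjusted p = 0.3005). Replicate 2 of day 7 was the highest of the 6 animals, and all day 21 animals were below all day 7 animals. Hspa1b, a near-identical copy whose reads may be split with Hspa1a, differed by -0.65. Chordc1, a partner of Hsp90, and Hsf1, the master transcription factor of the heat shock response, differed by -0.28 and -0.26. The abundant Hsp90ab1 was at 434, 439 and 431 FPKM on day 7 and 374, 406 and 424 on day 21 (difference -0.12, -0.27 to 0.04), separate but close.

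Genes of the unfolded protein response, which senses misfolded protein in the endoplasmic reticulum, lay the same way. Of 22 tested, 17 were below 0, the median was -0.148 (saline 0.0080), and 6 were lower and 0 higher at an unadjusted p under 0.05, beside 45.6% of all tested genes below 0, 3.69% lower and 6.19% higher at that level. Hspa5, the main chaperone of the endoplasmic reticulum, measured 104, 135 and 102 FPKM on day 7 and 80.3, 79.4 and 98.5 on day 21. The groups were separate (difference -0.39, -0.72 to -0.06, adjusted p = 0.423), although replicate 3 of day 21 lay just below the day 7 animals. Creld2, a secreted protein induced by endoplasmic reticulum stress, was at 10.2, 10.5 and 7.52 FPKM on day 7 and 5.69, 5.703 and 7.42 on day 21 (difference -0.51, -0.87 to -0.15, adjusted p = 0.346), again with replicate 3 nearest. Syvn1, a ubiquitin ligase that disposes of misfolded protein, was at 13.7, 13.2 and 13.4 and then 10.2, 10.6 and 12.5 FPKM (difference -0.26, adjusted p = 0.368). Xbp1, a transcription factor of the response, Sdf2l1 and Hyou1, both chaperones, differed by -0.32, -0.52 and -0.21, and in each the days overlapped. For Hspa1a, Hspa5 and Sdf2l1, replicate 2 was the highest day 7 animal, at 3.84, 135 and 12.1 FPKM.

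Both stress lists kept their direction in the alternatives run. After median-of-ratios scaling, quantile normalization, GC correction or with relative depth in the model, all 22 heat shock genes were below 0, and leaving out 1 library at a time left 19 to 22 below, with medians from -0.216 to -0.107. For the unfolded protein response 17 or 18 of 22 stayed below 0 when 1 library was left out, with medians from -0.209 to -0.101. The counts at an unadjusted p under 0.05 were less steady. They went from 6 to 10 for the unfolded protein response after GC correction, median-of-ratios scaling or quantile normalization. They went from 5 to 2 for the heat shock list without replicate 2 of day 7 or replicate 1 of day 21. For the unfolded protein response they went from 6 to 1 without replicate 1 of day 21 and to 2 without replicate 2 of either amphetamine group.

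**Figure D4:**
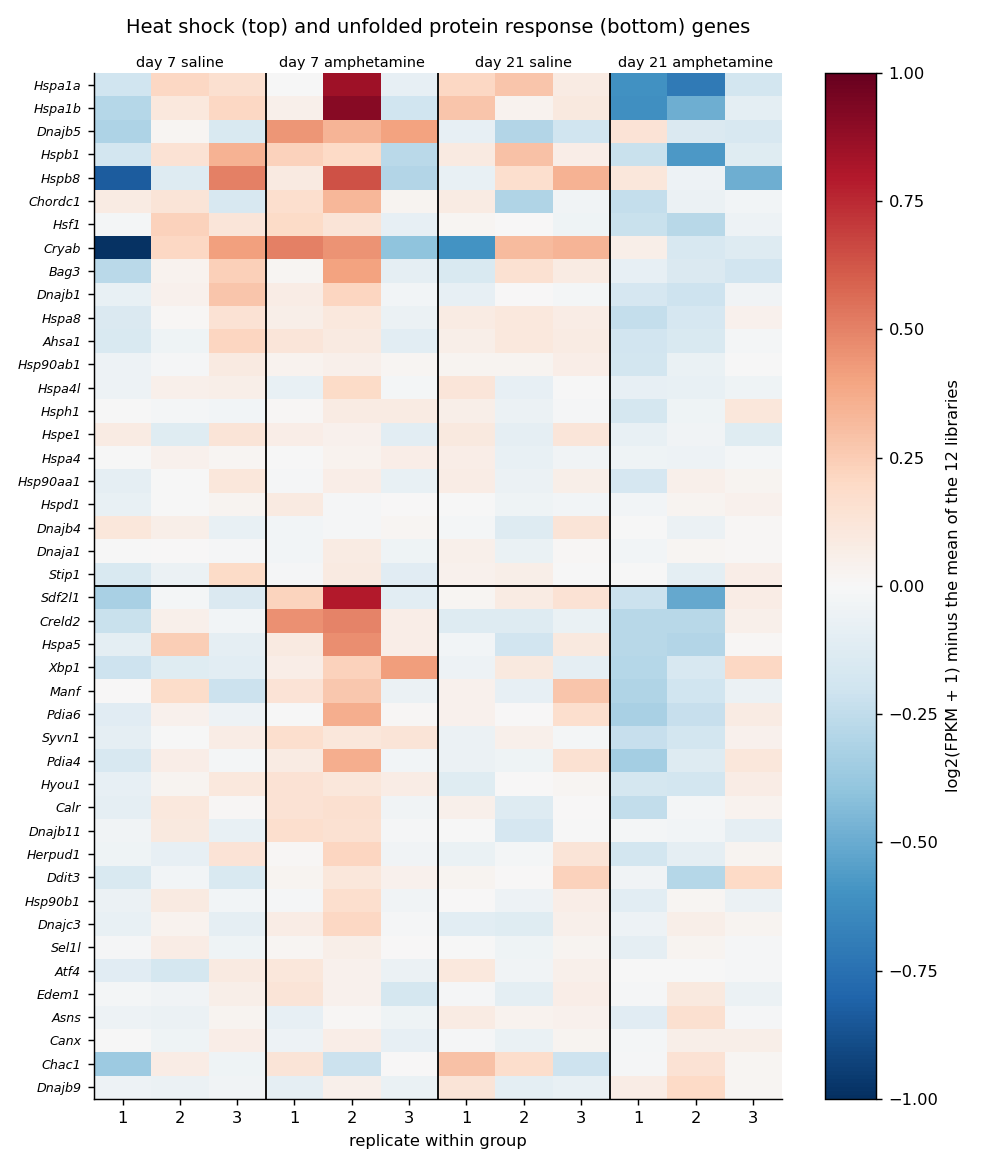
Each row is 1 of the 22 tested heat shock genes (top) or 22 tested unfolded protein response genes (bottom), ordered by the day 21 minus day 7 amphetamine difference, and each column is 1 animal of the 4 groups. Colour gives log2(FPKM + 1) minus the mean of the 12 libraries, from -1 (blue) to 1 (red); replicate 2 of day 7 amphetamine is the reddest column and replicates 1 and 2 of day 21 amphetamine are mostly blue.

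The promoters of these genes are shown because 2 well-known DNA elements mark the 2 stress responses. The heat shock element is built from inverted GAA repeats, and was searched as GAANNTTC; the endoplasmic reticulum stress response element was searched as CCAAT and CCACG with any 9 bases between them, on both strands and in the 250 bases before each annotated start (RefSeq, build GRCm38.p6, which is not the build mm9 of the deposited table). GAANNTTC occurred in 6.69% of 32851 promoter windows, in 6 of 25 windows of the heat shock list (24.0%; Dnaja1, Hspa1a, Hspa1b, Hspb1, Hspd1 and Hspe1, of 17 genes with a window) and in 1 of 20 windows of the unfolded protein response list (5.0%). The longer element occurred in 0.113% of all windows, in 8 of 20 windows of the unfolded protein response list (40.0%; Calr, Canx, Creld2, Dnajc3, Hsp90b1, Hspa5, Pdia6 and Syvn1) and in 0 of 25 of the heat shock list. The match is a description of these letters and says nothing of binding in these animals. The 4 windows below belong to members with a match that were described above (that of Hspa1b, the near-identical copy of Hspa1a, is not shown), in lower case from 5′ to 3′ on the gene's strand, with the matched element in capitals.
Hspa1a, chr17:34972157-34972406, minus strand, element at bases -104 to -97 from the start: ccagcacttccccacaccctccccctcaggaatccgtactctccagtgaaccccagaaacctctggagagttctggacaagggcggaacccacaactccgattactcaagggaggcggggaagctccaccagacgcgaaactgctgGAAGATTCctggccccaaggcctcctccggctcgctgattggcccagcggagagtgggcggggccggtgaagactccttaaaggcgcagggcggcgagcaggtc
Hspa5, chr2:34771840-34772089, plus strand, element at -65 to -47: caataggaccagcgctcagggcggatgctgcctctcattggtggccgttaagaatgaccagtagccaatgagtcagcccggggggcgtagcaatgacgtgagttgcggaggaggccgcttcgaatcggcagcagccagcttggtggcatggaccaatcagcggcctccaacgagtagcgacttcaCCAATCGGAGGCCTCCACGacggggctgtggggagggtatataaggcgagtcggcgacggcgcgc
Creld2, chr15:88819396-88819645, plus strand, element read on the opposite strand at -126 to -108: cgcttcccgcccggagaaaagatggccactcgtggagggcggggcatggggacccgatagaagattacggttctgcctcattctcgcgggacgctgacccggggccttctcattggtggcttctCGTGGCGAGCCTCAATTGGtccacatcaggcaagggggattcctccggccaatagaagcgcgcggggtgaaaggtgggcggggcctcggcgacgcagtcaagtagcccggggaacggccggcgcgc
Syvn1, chr19:6046326-6046575, plus strand, element at -44 to -26: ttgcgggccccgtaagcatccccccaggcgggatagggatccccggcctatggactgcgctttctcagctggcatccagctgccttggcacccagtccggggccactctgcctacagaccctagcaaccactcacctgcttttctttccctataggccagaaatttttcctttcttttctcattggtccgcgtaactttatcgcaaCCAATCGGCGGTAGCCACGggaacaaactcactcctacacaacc

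Glucocorticoid-responsive and clock genes, both of which follow arousal and time of day, also held genes with lower day 21 values. Per2, a repressor of the circadian clock, was at 16.3, 15.99 and 14.7 FPKM on day 7 and 11.8, 8.01 and 10.9 on day 21 of amphetamine. Every day 21 animal was below every day 7 animal (difference -0.58, -0.92 to -0.25, adjusted p = 0.263), and the day 21 values overlapped those of saline animals, 9.12, 11.03 and 8.82 FPKM on day 7 and 9.53, 7.26 and 9.32 on day 21. Its partner Per1 was at 32.9, 27.8 and 28.8 and then 25.6, 21.2 and 22.8 FPKM (difference -0.35, -0.62 to -0.08, adjusted p = 0.389). Arntl, the activator that drives both Per genes, was at 11.9, 8.26 and 10.6 FPKM on day 7 and 7.59, 7.97 and 7.08 on day 21 (difference -0.38, -0.71 to -0.05), and the nuclear receptor Rora differed by -0.44. Of 21 clock genes 14 were below 0 (median -0.0676, saline -0.0175) and 4 were lower and 0 higher at an unadjusted p under 0.05 (45.6%, 3.69% and 6.19% of all tested genes). Without replicate 2 of day 21 amphetamine the clock median was -0.0142, with 12 of 21 below 0. Leaving out any other library left 14 to 16 below, with a median of -0.0416 without replicate 3 of day 7. The labels give no hour of dissection, and the part of time of day was not tested. Of 23 glucocorticoid-responsive genes 17 were below 0 (median -0.120, saline 0.0509), with Per1 and Xdh, a purine-degrading enzyme, at an unadjusted p under 0.05. Per1 belongs to the immediate-early, clock and glucocorticoid-responsive lists and is counted as lower in each, so these lists are not separate sets of genes. Without replicate 2 of day 7 amphetamine 13 of the 23 glucocorticoid-responsive genes were below 0. Xdh measured 3.62, 4.01 and 3.57 FPKM on day 7 and 2.49, 2.704 and 1.64 on day 21 (difference -0.54), whereas Fkbp5, a cochaperone of the glucocorticoid receptor, was at 13.99, 15.02 and 15.7 and then 13.01, 13.4 and 14.5 with overlapping days (difference -0.12).

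Peptide genes were mostly above 0 in both treatments. Of 12 tested genes 9 were above 0 with amphetamine (53.8% of all tested genes), and the median was 0.182 with amphetamine and 0.416 with saline. With amphetamine, 2 were higher and 0 lower at an unadjusted p under 0.05 (6.19% and 3.69% of all genes). In 4 genes, Npy, Igfbp5, Sst and Cartpt, all day 21 amphetamine animals lay above all day 7 animals (9.52% of all genes). The median was 0.353 without replicate 3 of day 21 and 0.324 without replicate 2 of day 7. The widest differences, 0.70 to 0.72 for Cck, Cartpt and Nts, belonged to low and uneven genes: Nts, the neurotensin precursor, was at 1.81, 4.66 and 1.52 FPKM on day 7 and 7.05, 6.41 and 2.02 on day 21. Npy, the neuropeptide Y of striatal interneurons, measured 52.9, 55.7 and 56.8 FPKM on day 7 and 67.6, 76.4 and 64.5 on day 21 of amphetamine. The days were separate (difference 0.33, 0.08 to 0.57, adjusted p = 0.368), but saline animals went from 50.3, 41.9 and 52.2 to 75.4, 62.6 and 62.7 FPKM, a difference of 0.47. Sst, somatostatin of the same interneurons, differed by 0.19 with amphetamine and 0.36 with saline. Igfbp5, a binding protein of insulin-like growth factors, was at 18.1, 19.1 and 16.9 FPKM on day 7 and 23.5, 23.8 and 21.1 on day 21 (difference 0.32, 0.16 to 0.48, adjusted p = 0.246), with only 0.07 in saline. Its day 7 amphetamine animals were the low group, since saline animals were at 21.6, 21.8 and 20.5 FPKM on that day.

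The peptides of the projection neurons overlapped between the days. Pdyn, the dynorphin precursor of the direct pathway, was at 62.7, 70.8 and 59.8 FPKM on day 7 and 65.6, 74.7 and 74.5 on day 21 (difference 0.15, -0.12 to 0.42), all above the saline animals at 32.1, 47.8 and 45.9 and 54.05, 46.6 and 48.4. Tac1, the substance P precursor, was at 261, 204 and 255 and then 246, 278 and 287 FPKM (difference 0.18, -0.08 to 0.43). Penk, the enkephalin precursor of the indirect pathway, was at 1415, 1162 and 1311 and then 1140.5, 1187 and 1306 FPKM (difference -0.10, -0.31 to 0.12). The 4 opioid receptor genes were tested, with 0 at an unadjusted p under 0.05: Oprk1, the dynorphin receptor, differed by 0.28 (-0.19 to 0.75), Oprd1 by -0.18, Oprm1 by 0.09 and Oprl1 by -0.10. Their intervals were wide, as Oprm1 was low and uneven at 1.5999, 1.35 and 3.07 FPKM on day 7 and 2.03, 2.26 and 2.06 on day 21.

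Markers of the 2 projection pathways lay slightly apart. Of 13 direct pathway markers 8 were above 0 (53.8% of all tested genes), with a median of 0.144 (saline 0.0059). At an unadjusted p under 0.05, 2 were higher and 0 lower (6.19% and 3.69% of all genes). Isl1, a transcription factor that specifies direct pathway neurons, was at 6.696, 6.18 and 6.59 FPKM on day 7 and 7.49, 8.48 and 8.31 on day 21. The days were separate (difference 0.28, 0.11 to 0.45, adjusted p = 0.272; saline 0.06). Drd1a, the D1 dopamine receptor, was at 102, 95.9 and 111 FPKM on day 7 and 109, 118 and 117 on day 21, with overlap at replicate 1 of day 21 (difference 0.15, 0.01 to 0.29, adjusted p = 0.445). Its saline animals lay the other way, 125, 119 and 109 and then 108, 114 and 111 FPKM, and the interaction was 0.23 (unadjusted p = 0.0223, adjusted p = 0.998). Without replicate 3 of day 21 amphetamine the list's median was 0.0366. Of 12 indirect pathway markers 9 were below 0 (45.6% of all tested genes) with a median of -0.0675 (saline -0.0582), and 0 had an unadjusted p under 0.05. Drd2, the D2 receptor, was at 139, 117 and 144 FPKM on day 7 and 113, 101 and 135 on day 21 (difference -0.20, -0.46 to 0.06), and Adora2a, the adenosine receptor of the same neurons, differed by -0.08. General projection neuron markers (25 tested, median -0.0243), striosome markers (13, median 0.0386) and matrix markers (8, median 0.0832) included 0, 0 and 2 genes at an unadjusted p under 0.05.

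Second messenger genes downstream of dopamine had list medians near 0. Of 20 tested dopamine signalling genes 11 were below 0 (45.6% of all tested genes), with a median of -0.0363. Yet 4 were higher and 0 lower at an unadjusted p under 0.05 (6.19% and 3.69% of all genes). Among the 4 were Maoa, which degrades monoamines (0.20), Drd1a, and Prkacb, a catalytic subunit of protein kinase A (0.15). In 3 of the 20 all day 21 amphetamine animals lay above all day 7 animals, and in 0 below (9.52% and 6.47% of all genes). Among 12 genes of Ras and Rap exchange signalling, the small GTPases Rap1b (20.7, 22.4 and 21.9 and then 25.4, 26.7 and 23.9 FPKM, difference 0.21) and Rap1a (difference 0.19) were higher at an unadjusted p under 0.05. The exchange factors enriched in striatum, Rasgrp1 (CalDAG-GEFII) and Rasgrp2 (CalDAG-GEFI), differed by -0.02 (-0.17 to 0.14) and -0.10 (-0.31 to 0.11). Phosphodiesterase, cyclase and protein kinase A genes (28, median -0.0082) had 3 higher and 1 lower at that level, and RGS genes (17, median 0.0409) had 2 higher and 1 lower. Mgll, which degrades the endocannabinoid 2-AG, was at 39.3, 37.2 and 45.8 FPKM on day 7 and 47.1, 46.98 and 53.6 on day 21 (difference 0.27, 0.10 to 0.44, adjusted p = 0.283). Cnr1, the cannabinoid receptor, was at 99.9, 77.7 and 97.5 and then 84.03, 73.2 and 58.8 FPKM (difference -0.35, -0.66 to -0.04), with -0.30 in saline animals, so the day difference was of similar size without the drug.

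Among channel and postsynaptic genes, those with a small p lay lower on day 21 in the deposited scaling. Of 27 calcium and sodium channel genes 19 were below 0 (median -0.114, saline -0.0377 with 19 below; 45.6% of all genes with amphetamine and 35.5% with saline), and 4 were lower and 0 higher at an unadjusted p under 0.05 (3.69% and 6.19% of all genes). None of the 27 had such a p without replicate 2 of day 21 amphetamine. Scn8a, a sodium channel of the axon initial segment, was at 31.4, 40.4 and 34.9 FPKM on day 7 and 34.7, 21.8 and 21.1 on day 21. Replicate 1 of day 21 lay within the day 7 range and the other two lay below it (difference -0.47, -0.88 to -0.07, adjusted p = 0.425). Cacna1c, Cacna1e and Cacna1h, pore subunits of voltage-gated calcium channels, differed by -0.31, -0.23 and -0.24. Of 47 potassium channel genes (median -0.0088) 5 were lower and 0 higher at that level. Kcnt1, a sodium-activated potassium channel, was at 36.2, 33.2 and 34.7 FPKM on day 7 and 29.6, 27.6 and 28.8 on day 21, separate between days (difference -0.27, adjusted p = 0.279). Kcnq3, of the M current, was at 17.004, 19.4 and 20.4 and then 16.8, 13.6 and 11.1 FPKM (difference -0.44). Of 43 glutamate receptor and scaffold genes 28 were below 0 (median -0.0508) and 5 were lower and 0 higher at that level. After GC correction 23 of the 43 were below 0, with 3 lower and 2 higher at that level, and without replicate 3 of day 7 amphetamine 21 were below 0, with a median of 0.0024 and 1 gene each way. Among the 5, Grin2a, an NMDA receptor subunit gene, was at 4.76, 5.48 and 5.71 FPKM on day 7 and 4.72, 3.97 and 2.91 on day 21 (difference -0.39, -0.77 to -0.01, adjusted p = 0.485), and Pick1, Dlgap2 and Grin2c differed by -0.16, -0.18 and -0.21.

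GABA and vesicle genes were mixed. Of 23 GABA signalling genes (median 0.0063), Gabra2, a subunit of the GABA-A receptor, was higher by 0.42, and another subunit, Gabrb1, was lower by -0.29, each at an unadjusted p under 0.05. Gabrb1 was at 9.68, 9.57 and 10.8 FPKM on day 7 and 8.95, 7.86 and 7.31 on day 21, separate between days, whereas Gabra2 at 28.7, 29.5 and 31.9 and then 45.5, 47.4 and 30.4 overlapped through replicate 3 of day 21. Of 42 synaptic vesicle genes (median 0.0110) 4 were higher and 2 lower at that level, among them Sv2b, a vesicle glycoprotein (0.32), Unc13a, which primes vesicles (-0.22), and Rph3a (-0.28). Receptors for serotonin, acetylcholine, noradrenaline and histamine (21, median -0.0231) had 1 gene at that level, Chrna7, a nicotinic receptor subunit, at -0.28. Over all tested genes, 6.19% were higher and 3.69% lower at that level.

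Ribosomal protein genes were mostly above 0 with and without the drug. Of 77 tested genes of the cytosolic ribosome 65 were above 0 with amphetamine (median 0.0877) and 76 with saline (median 0.181), beside 53.8% and 63.9% of all tested genes. At an unadjusted p under 0.05, 11 were higher and 1 lower with amphetamine, and 27 were higher and 0 lower with saline (higher among all genes: 6.19% and 4.41%). After GC correction 68 were above 0 with amphetamine. Rps7 was at 39.2, 38.5 and 38.4 FPKM on day 7 and 44.9, 44.7 and 48.3 on day 21 of amphetamine, and at 38.4, 38.2 and 43.6 and then 45.5, 47.6 and 48.8 with saline. The day differences were thus nearly equal, 0.24 (0.12 to 0.37, adjusted p = 0.246) and 0.23. Rpl4 was alike, at 0.18 with amphetamine and 0.20 with saline. Leaving out 1 library at a time left 59 to 74 of the 77 genes above 0. Mitochondrial ribosome genes (76) had a median of 0.0130 with amphetamine and 0.0983 with saline, with Mrpl13 at the far end: 8.45, 11.8 and 12.7 FPKM on day 7 and 16.7, 24.01 and 17.5 on day 21 (difference 0.77, 0.40 to 1.13, adjusted p = 0.225; saline 0.37). Genes of oxidative phosphorylation (75) had 27 above 0 and a median of -0.0282 with amphetamine, 0 of them at an unadjusted p under 0.05, against 70 above 0 and a median of 0.101 with saline. The amphetamine direction of that list was not steady, since leaving out 1 library moved the number above 0 between 21 and 51. Genes of cholesterol and lipid synthesis (23) were above 0 in 15 cases with amphetamine (median 0.0509, 5 higher and 0 lower at that level) and in 23 of 23 with saline (median 0.0993). Without replicate 1 of day 21 amphetamine the median was 0.0069 with 1 higher and 1 lower at that level, median-of-ratios scaling gave 2 higher and 1 lower, and after GC correction 19 were above 0 with 3 higher and 0 lower. Sqle and Insig1, an enzyme and a regulator of sterol synthesis, differed by 0.20 and 0.27.

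Chromatin enzymes held lower genes among those with a small p. Of 39 tested 27 were below 0 (median -0.0437, saline 0.0193), and 6 were lower and 2 higher at an unadjusted p under 0.05, beside 45.6% of all tested genes below 0, 3.69% lower and 6.19% higher at that level. Dnmt3a, a DNA methyltransferase of neurons, was at 13.7, 14.1 and 15.7 FPKM on day 7 and 12.6, 12.2 and 11.7 on day 21. The days were separate (difference -0.23, -0.37 to -0.10, adjusted p = 0.263; saline -0.11). Kdm5c, a histone demethylase, was at 9.98, 10.4 and 9.87 and then 8.23, 7.88 and 9.197 FPKM (difference -0.23, adjusted p = 0.263), and the acetyltransferase Crebbp differed by -0.26. The methyltransferase Ehmt1 lay the other way, at 10.1, 9.31 and 9.93 and then 11.5, 11.3 and 10.999 FPKM (difference 0.19, adjusted p = 0.351). Of 15 neurotrophin and growth factor receptor genes 14 were below 0 (median -0.120, saline 0.0113), among them Ntrk3 and Fgfr1, receptors for a neurotrophin and for fibroblast growth factors, at -0.20 and -0.23. The exception was Gfra1, a receptor for GDNF, at 6.29, 6.699 and 7.27 FPKM on day 7 and 8.17, 7.99 and 8.701 on day 21 (difference 0.26, 0.10 to 0.42, adjusted p = 0.272). Leaving out 1 library at a time left 11 to 14 of those 15 below 0, with a median of -0.0675 without replicate 2 of day 7.

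Markers of other cells were examined in the same animals, because the striatum borders cortex, septum and ventricle and contains glia and vessels. Microglial markers were 13 of 17 above 0 with amphetamine (median 0.0715) and 17 of 17 with saline (median 0.192), beside 53.8% and 63.9% of all tested genes. With amphetamine, 5 were higher and 0 lower at an unadjusted p under 0.05 (6.19% and 3.69% of all genes). The days did not overlap in 6 of the 17 with amphetamine and 8 with saline, all higher (9.52% and 7.48% of all genes). P2ry12, a purine receptor of resting microglia, was at 17.2, 15.8 and 15.1 FPKM on day 7 and 23.2, 21.5 and 20.4 on day 21. The days were separate (difference 0.41, 0.21 to 0.62, adjusted p = 0.246; saline 0.18). Cx3cr1, the fractalkine receptor, and Aif1, the microglial protein Iba1, differed by 0.20 and 0.46. Csf1r, another microglial marker, did not rise. It was at 20.85, 20.5 and 19.96 FPKM on day 7 and 19.9, 16.9 and 20.9 on day 21 of amphetamine, with overlapping days. The summed level of the list overlapped, 220 to 253 FPKM on day 7 and 237 to 269 on day 21, and without 1 library the number of genes above 0 ran from 8 to 15, with a median of -0.0043 without replicate 3 of day 21 and 0.0105 without replicate 3 of day 7.

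Cortical neuron markers had day 21 medians above 0 in both treatments. Of 11 tested (17 listed) 8 were above 0 with amphetamine (median 0.213) and 8 with saline (median 0.415). All day 21 amphetamine animals lay above all day 7 animals in 5 genes and below in 0 (9.52% and 6.47% of all genes). At an unadjusted p under 0.05, 1 was higher with amphetamine and 5 with saline, and 0 were lower in either. Of all genes, 6.19% and 4.41% were higher at that level. The summed amphetamine level, led by abundant members, overlapped: 751 to 901 FPKM on day 7 and 791 to 821 on day 21. The list's mean log2(FPKM + 1) was 3.0379 on day 7 and 3.435 on day 21 of amphetamine (SD 0.1996 and 0.1218). Slc17a7, the vesicular glutamate transporter of cortical neurons, was at 1.29, 3.48 and 7.49 FPKM on day 7 and 11.3, 20.3 and 10.5 on day 21 with amphetamine, and at 10.5, 4.56 and 1.69 and then 48.4, 7.42 and 19.6 with saline. The amphetamine days were separate (difference 1.71, -0.06 to 3.48, adjusted p = 0.5197), in a gene that varied many times over between animals of 1 group. Tbr1, a cortical transcription factor, and Rprm differed by 0.84 and 0.71. The part of cortical tissue in the differences above was not tested.

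The summed levels of the remaining cell types overlapped between the days of amphetamine. Ependymal markers (5 of 11 tested) were all above 0 (median 0.215, saline 0.974), with a summed level of 6.13 to 21.3 FPKM on day 7 and 7.22 to 24.1 on day 21. Choroid plexus markers (4 of 17 tested) summed to 48.2 to 62.7 and 41.8 to 62.7 FPKM, and Ttr, a defining marker among them, was uneven at 20.3, 0.911 and 24.4 on day 7 and 13.9, 17.5 and 4.85 on day 21. Blood markers (5 of 14) summed to 203 to 477 and 201 to 347 FPKM. In saline animals they summed to 161 to 1180 FPKM on day 7 and 125 to 197 on day 21. Their saline median was -1.40, and 4 of 5 were lower at an unadjusted p under 0.05 (0.995% of all genes). The part of blood in the saline differences was not tested. Astrocyte markers (17) were below 0 in 13 cases (median -0.0661; 1115 to 1350 and 1197 to 1247 FPKM), and 0 were at an unadjusted p under 0.05. Oligodendrocyte markers (18, median 0.0133; 1371 to 2401 and 1745 to 2094 FPKM) included the myelin gene Opalin at 0.51, and oligodendrocyte precursor markers (11, median 0.133; 104 to 172 and 129.8 to 152 FPKM) were above 0 in 9. Endothelial markers (17, median 0.0628; 137 to 147 and 139.9 to 154 FPKM), mural markers (10, median -0.0770; 54.7 to 57.4 and 53.3 to 60.5) and fibroblast markers (4 of 13 tested, median 0.0097) had 0 genes at that level. In 4 of the 17 endothelial genes all day 21 amphetamine animals lay above all day 7 animals, and in 1 below (9.52% and 6.47% of all genes). With saline 5 of the 17 were above 0 (63.9% of all tested genes). Interneuron markers (17, median -0.0905) were below 0 in 13, with 1 at that level, Npy, and septal and pallidal markers (10, median -0.0017) also had 1, Zic1, at 0.33. The interferon response (10, median 0.0269), oxidative stress (18, median 0.0612) and extracellular matrix (18, median -0.0274) lists had 2, 1 and 1 gene at that level. Over all tested genes, 53.8% lay above and 45.6% below 0 with amphetamine, and 6.19% were higher and 3.69% lower at that level.

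**Figure D5:**
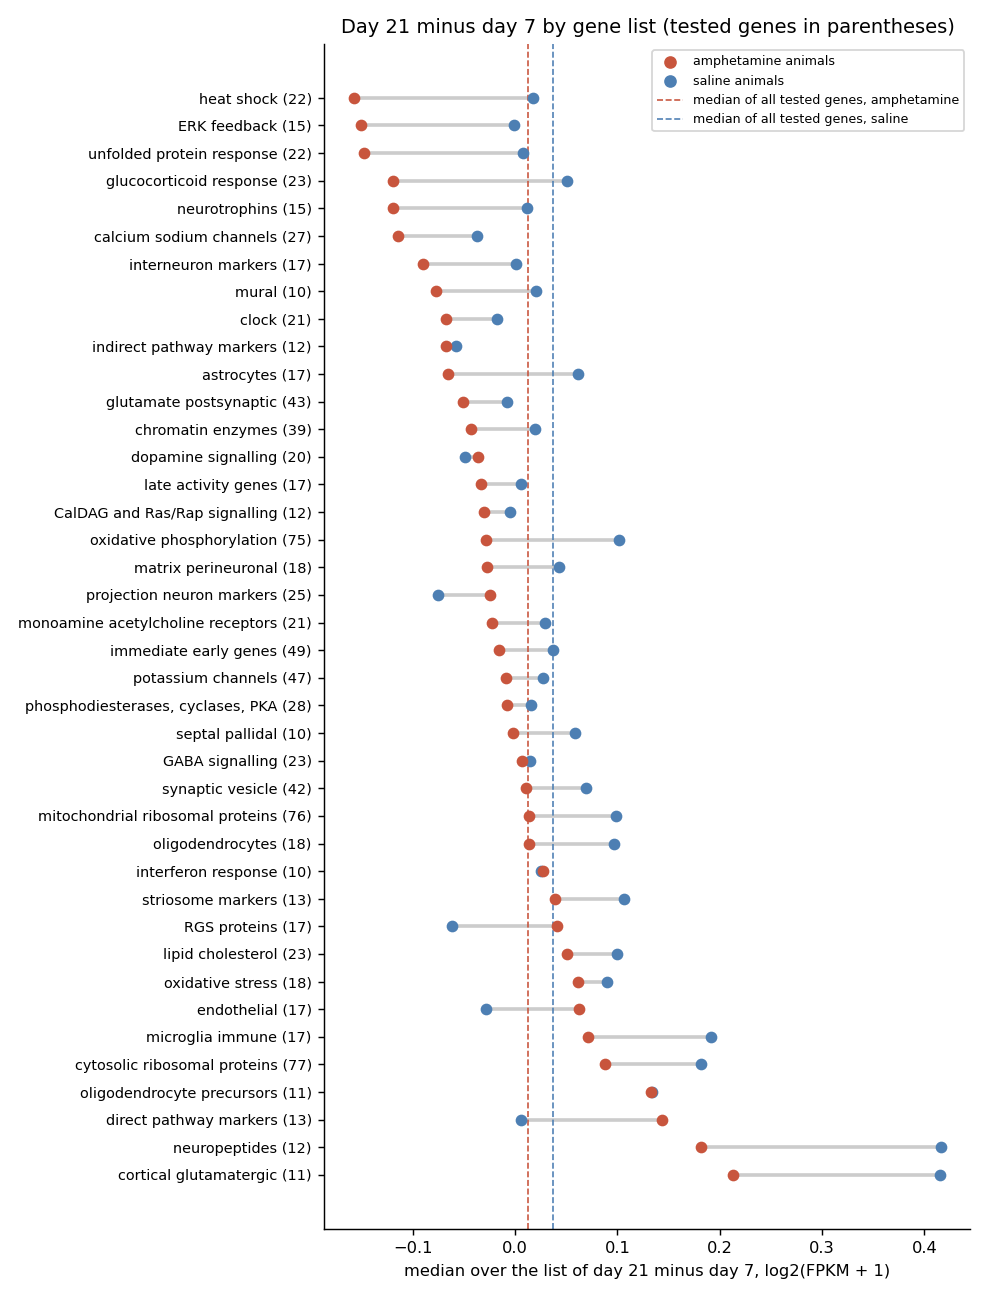
Median day 21 minus day 7 difference in log2(FPKM + 1) over the tested members of each of the 40 lists with at least 10 tested genes, in amphetamine (red) and saline (blue) animals, ordered by the amphetamine median. Dashed lines mark the medians of all tested genes, 0.0129 and 0.0372; heat shock, ERK feedback and unfolded protein response lie lowest with amphetamine at -0.158, -0.151 and -0.148, and no list carries a test.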

How the data were processed

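PolyA RNA of the striatum was sequenced in 18 mice, 3 in each of 6 groups named in the sample titles. The deposited values are FPKM as the authors computed them. Bowtie and the genome build mm9 are named in the submitters' processing notes. The quantifying program, annotation and strand handling are not stated in the labels or the table, so overlapping genes and near-identical copies cannot be told apart. The 18 columns were matched to samples by the numbers in the sample descriptions, and 0 columns belonged to other samples.

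Since FPKM hold no whole reads, count models were not used, and depth was only known relative to the deepest library. Genes with a mean of at least 1 FPKM (13975 of 29942) were tested as log2(FPKM + 1), which understates differences of low genes, with limma 3.58.1 (R 4.3.3): 1 mean per group, all 18 libraries, mean-variance trend, 12 residual and 2.26 prior degrees of freedom, two-sided p adjusted by Benjamini-Hochberg over all tested genes at a threshold of 0.05. Contrasts were day 21 minus day 7 in amphetamine animals, in saline animals, and their difference. The scripts were tested on simulated data.

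Lists are described by counts and medians beside all genes, without tests. The comparison, the 48 lists and the genes were chosen with earlier results of these data known. Genes named were the 8 per direction with the smallest p among genes with separate groups (short RNA genes left out), up to 3 members of each list with the smallest p, role genes, 5 interaction genes, and the 3 largest differences per direction among separate genes of at least 20 FPKM. Hspa1b and other members beyond these were added after their values were seen. A few genes that this rule names are not reported here. Promoters are RefSeq windows of GRCm38.p6, 250 bases before the start. Transcript GC was available for 12816 genes (91.7%). Alternatives were scaling, filter, pseudocount, weights, subsets of libraries, the replicate block and single libraries left out; GC correction and relative depth as a covariate were added after the data were seen. Figures were drawn with matplotlib 3.10.9.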

Additional observations from a re-analysis of the deposited data

How the results depend on the processing

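Of 181 genes named by rule, 167 kept the sign of their amphetamine difference in all 26 alternatives run. Many of these alternatives could not change that difference, which is set by the means of the amphetamine groups alone. Among them were saline libraries left out, robust moderation, other filters, the replicate block and fits to fewer groups. The number of genes past the adjusted threshold, 0 in each comparison, was 4 in amphetamine animals with array weights (Ikbip, BC034252, Eny2 and Zfhx2), 7 with the 6 libraries of the contrast alone (Ube2v2, Snord49a, CC1, AK181029, Mir3070b, Snord52 and Mir1943) and 3 with relative depth as a covariate (Ikbip, Ncam1 and Acrbp). Without 1 library it ran from 0 to 5, with 5 without day 21 amphetamine replicate 2 (Ikbip, Snora35, NCX1, BC116340 and Jmjd6) and 1 each without day 21 amphetamine replicate 3 (Snord71) and day 21 saline replicate 1 (AK181029). In saline animals it was 1 with array weights, 1 with the label number (in ranges) as a covariate, 1 with the 12 libraries of days 7 and 21, 9 with 6 libraries and 0 to 1 without 1 library; for the interaction 1 with that covariate, 1 with 12 libraries and 0 to 2 without 1 library (2 without day 21 amphetamine replicate 2). The cause was not tested.

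Genes at an unadjusted p under 0.05 numbered 1381 in amphetamine animals, 2124 with array weights, 1338 with median-of-ratios scaling, 1344 with quantile normalization, 1311 with GC correction and 908 without day 21 amphetamine replicate 2. In saline animals (755) they numbered 1208 with no filter, 501 with a filter of 5 FPKM, 1801 with array weights and 1272 without day 7 saline replicate 3, and for the interaction (574) 989, 371 and 1314 with the first 3 of these.

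The replicate numbers do not pair animals: same-numbered libraries of days 7 and 21 correlated in their deviations at -0.131 to -0.0046 with amphetamine and -0.0293 to 0.0501 with saline. With the replicate block 0 genes passed in each comparison, and 1383, 753 and 568 had an unadjusted p under 0.05.

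Signs that turned were those of small or uneven differences. Without 1 library the difference ran for Oprl1 from -0.25 to 0.0902, Ugt8a from -0.0143 to 0.328, Mog from -0.0281 to 0.342, Clic6 from -0.0359 to 0.223, Ttr from -0.989 to 0.877, Foxj1 from -0.123 to 0.575, Beta-s from -0.415 to 0.201, Alas2 from -0.0616 to 0.179, Fos from -0.193 to 0.0808, Junb from -0.0467 to 0.223, Dusp1 from -0.132 to 0.117, Rasgrp1 from -0.0992 to 0.0676 and Oprm1 from -0.0621 to 0.334. GC correction gave Fos 0.0107 and Eif2s3y -0.0106, array weights gave Fos 0.0602 and Alas2 -0.0016, a covariate for the label number gave Fos 0.153, and relative depth gave Rasgrp1 0.0103.

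The width of the intervals rests on 3 animals per group and on a spread estimated within all 6 groups, not only within those compared. The unknown depth leaves no counting error for single values. The spread is that between animals of the same group over all 18 libraries.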

Other observations

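Transcripts with names of short RNAs or clones gave the largest differences by size, and each was listed at 0 or close to it in 1 of the groups. Snord52, a small nucleolar RNA, was at 829, 495 and 363 FPKM in the day 7 amphetamine animals and listed at 0 in all 3 day 21 animals, and in saline animals it was listed at 0 in 5 of 6 of the same days. Mir1943 was at 130.01, 310.5 and 228 FPKM on day 7 and listed at 0 in all 3 day 21 animals. Snord49a went the other way, listed at 0 in all 3 day 7 animals and at 306, 313 and 1172 FPKM on day 21. PolyA libraries are not made to capture such short transcripts, and a gene of that length reaches a high FPKM with few fragments. Rtn-1A, a form of the reticulon gene, was at 0.156, 0.486 and 0.0007 FPKM on day 7 and 42.6, 100.5 and 19.9 on day 21, with saline animals at 8.76, 52.2 and 0.0005 and 48.4, 0.0083 and 19.5. No fold is given for these transcripts.

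Interaction values with the smallest p belonged to BC116340 (unadjusted p = 3.9e-05, adjusted p = 0.539), AK181029, AI846148, AK186849 and Tfb2m. Tfb2m, a transcription factor of mitochondria, was at 12.02, 11.5 and 10.8 FPKM on day 7 and 14.4, 14.6 and 12.98 on day 21 of amphetamine, and at 13.5, 12.4 and 12.9 and then 11.9, 11.7 and 12.3 with saline. The amphetamine days were separate, and the interaction was 0.37 (0.19 to 0.55, adjusted p = 0.998). AI846148 was at 5.97, 6.21 and 5.66 and then 4.17, 4.56 and 5.31 FPKM with amphetamine and at 4.08, 4.54 and 4.69 and then 4.98, 5.102 and 5.94 with saline, an interaction of -0.52 (-0.76 to -0.27). AK186849 was at 4.14, 2.84 and 1.28 and then 1.31, 0.316 and 0.119 FPKM with amphetamine (interaction -1.94, -2.88 to -1.002).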
